A study of Mus musculus with 7 samples.

Results

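The genes described here are 39 collagen, laminin and other extracellular matrix genes, chosen by name from the 32285 genes in the deposited counts of mouse utricle. They fall into 18 stromal genes (the fibrillar collagens, the fibril-associated collagens, collagen VI and fibronectin) and 21 basement membrane genes (collagen IV, collagens VII, XV and XVIII, 9 laminin chains, the nidogens and perlecan). All 39 were found in the files, and all 39 passed the filter on low counts that left 17155 tested genes. Each library was made from the RNA of 12 pooled utricle explants of wild-type (WT) mice at postnatal day 2 (P2). The utricles had been freed of the overlying membrane and its otoconia, cultured whole in serum-free medium on an adhesive-coated coverslip and damaged with gentamicin, an antibiotic that kills hair cells. The Gent+Fos OE group (4 libraries) also received AAV-PHP.eB Fos, an adeno-associated virus that carries Fos behind a CMV promoter, which is active in many cell types. The Gent group (3 libraries) is labelled with gentamicin alone. Gentamicin damage was thus common to all 7 libraries, and there was no undamaged group. The study describes the controls of its overexpression experiments as explants given AAV-CMV-EGFP, a virus without Fos, whereas the labels of the Gent libraries name no virus and the deposited names of their counts hold letters that could also mean an shRNA. Each difference rests on the labels. Each library was 1 pool of whole explants which hold stroma as well as epithelium, so a value cannot be placed in the epithelium or in the tissue under it.

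Collagens are triple helices of 3 chains. Collagens I, II, III, V and XI assemble into the striated fibrils of connective tissue and cartilage, and collagens IX, XII, XIV and XVI decorate those fibrils. Collagen VI forms beaded filaments around cells, and fibronectin is the glycoprotein on which much of this matrix is first laid down. A basement membrane is a thin sheet under an epithelium or around vessels, nerves and muscle. It is built of a laminin network, in which each molecule joins an alpha, a beta and a gamma chain and binds to cells, and of a collagen IV network, with nidogens and the proteoglycan perlecan linking them. In the utricle, a balance organ of the inner ear, hair cells and supporting cells stand on such a sheet, and a vascularised and innervated stroma lies beneath.

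The question put to the counts was whether these genes differed between damaged utricles with and without added Fos. Levels are TMM-scaled read counts relative to library size (CPM), and values of single libraries are given in the order of the replicate numbers. Fold changes are fitted log2 values of Gent+Fos OE over Gent with their standard error (SE) from edgeR's quasi-likelihood fit across all genes. A call needed an adjusted p (Benjamini-Hochberg) under 0.01 and a log2 fold change beyond 0.25 in either direction. By this rule 1 of the 39 members was called, Col4a6, which rose, against a background of 0.414% of tested genes called in either direction. At an adjusted p under 0.05, 3 members were higher (Col4a6, Col4a5 and Col7a1, all of the basement membrane) where 0.665% of tested genes were higher, and 1 was lower (Col2a1, stromal) where 1.19% were lower. Without adjustment, at p under 0.05 and the same fold limit, 11 members were higher (background 11.1%) and 1 was lower (background 13.4%). In RNA of whole explants, fewer cells of a type and less RNA per cell cannot be told apart.

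The counts are given apart for the 2 groups of genes, and no test of the lists against each other was run. Of the 21 basement membrane genes, 18 had a positive fold change, 10 passed the unadjusted limit upward and 0 downward, and the median log2 fold change was 0.52. Of the 18 stromal genes, 8 had a positive fold change, 1 (Col6a3) passed the unadjusted limit upward and 1 (Col2a1) downward, and the median was -0.056. The median over all tested genes was -0.00075. The levels of the 2 groups of libraries did not overlap for 10 members that were higher in Gent+Fos OE, 9 of them basement membrane genes, and for 1 that was lower, against 11.3% and 12.2% of all tested genes. In the longest of 4 length classes, which holds 32 members, these shares were 23.6% and 3.33%. The plot of fitted differences shows the basement membrane genes reaching further to the right than the stromal genes.

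**Figure D1:**
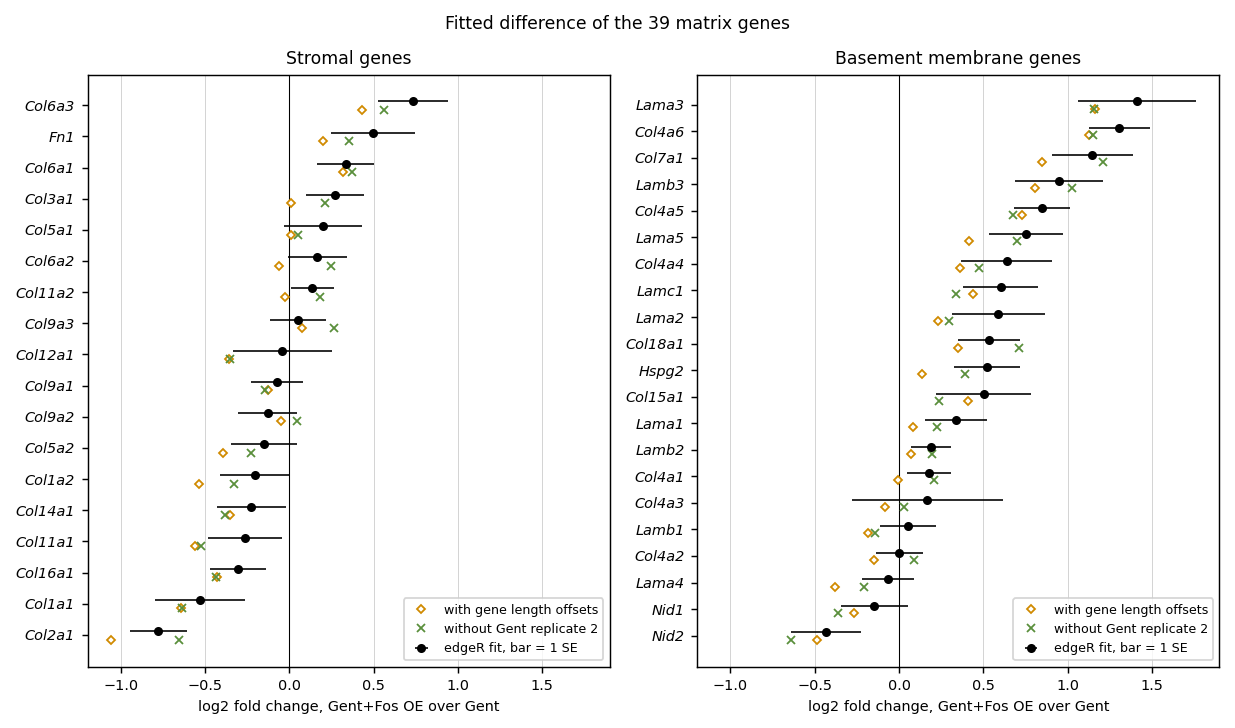
Fitted log2 fold change of Gent+Fos OE (4 libraries) over Gent (3 libraries) for each member on the horizontal axis, with black points and bars of 1 SE from edgeR, open diamonds from the fit with gene length offsets and crosses from the fit without Gent replicate 2. Basement membrane genes on the right run from -0.43 (Nid2) to 1.41 (Lama3), and stromal genes on the left from -0.78 (Col2a1) to 0.73 (Col6a3).

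Gene length has to be kept in view, because the difference between the groups moved with it in all genes. The summed exon length of the members ran from 3.10 to 16.6 kb with a median of 8.33 kb, and 37 of them exceeded the median length over tested genes (4.08 kb). Across the 17155 tested genes, Spearman's rho between length and log2 fold change was 0.38, and it was 0.19 without Gent replicate 2 and 0.067 after each library's own trend with length was removed by loess offsets. Gent replicate 2 itself departed from the mean of the libraries by an amount that fell with length (rho = -0.50). Gent replicate 3 did so less strongly (rho = -0.22), and Gent replicate 1 rose with length (rho = 0.15). All 4 Gent+Fos OE libraries rose with length, with rho of 0.12 to 0.33, so the trend went largely with the group. These rho values describe genes within the same 7 libraries, and genes are not independent replicates.

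The longest length class of tested genes, 1 of 4 equal classes (6.42 kb and longer), held 32 members. The median log2 fold change over its 4288 genes was 0.23, so a long gene was on the whole higher in Gent+Fos OE. In this class 25.1% of genes passed the unadjusted limit upward and 3.33% downward, and the 10 basement membrane genes that passed it were all in this class. Within it the 18 basement membrane genes had a median of 0.56 and the 14 stromal genes one of -0.094. With length offsets these medians were 0.29 and -0.36, beside -0.0033 for all genes of that class, and without Gent replicate 2 they were 0.36 and -0.28 beside 0.11. Over all members, the offsets moved the basement membrane median from 0.52 to 0.23 and the stromal median from -0.056 to -0.094. With offsets, 7 members passed the unadjusted limit upward (Col4a5, Col4a6, Col7a1, Lama3, Lamb3, Lamc1 and Col6a3) against a background of 8.14%, and 8 passed downward (Col1a1, Col1a2, Col2a1, Col5a2, Col11a1, Col16a1, Lama4 and Nid2) against 14.9%. The basement membrane median lay above the stromal median in each of these fits.

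**Figure D2:**
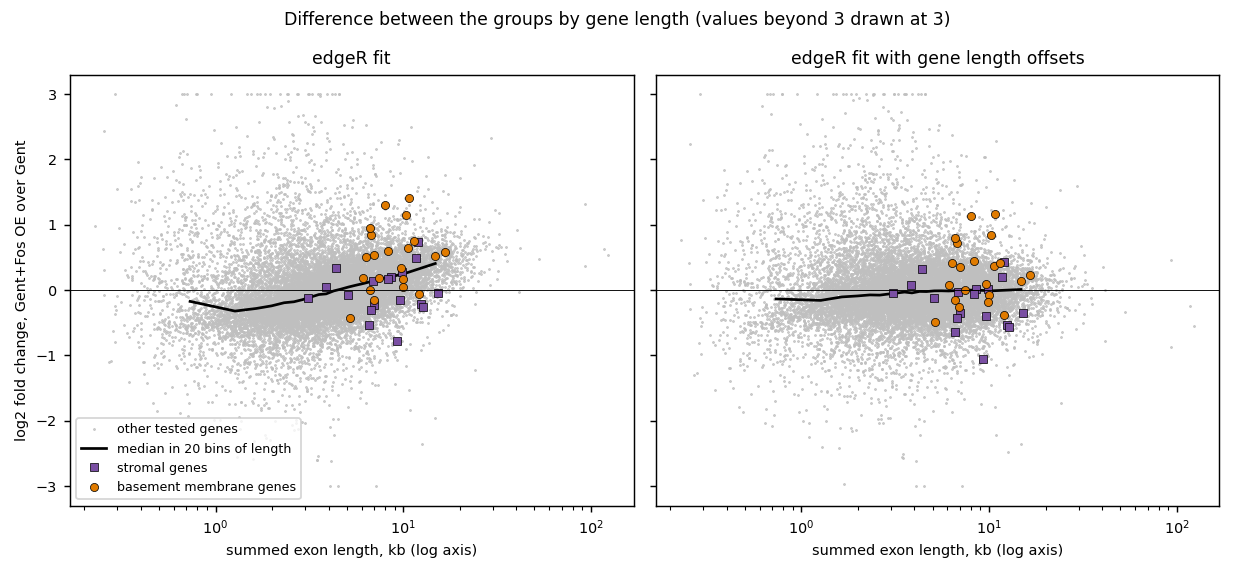
Log2 fold change of Gent+Fos OE over Gent (vertical axis) against summed exon length in kb (horizontal log axis) for 17155 tested genes in grey, 18 stromal genes as squares and 21 basement membrane genes as circles, with the black line giving the median of tested genes in bins of length. The left panel is the edgeR fit, where the line climbs with length, and the right panel the fit with gene length offsets, where it lies near 0 for long genes and the circles have a median of 0.23 and the squares one of -0.094.

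Collagen IV is the network-forming collagen of basement membranes, and its 6 chain genes lie in head-to-head pairs from which neighbours are read in opposite directions. The chains form 3 kinds of trimer, the widespread one of 2 Col4a1 chains and 1 Col4a2 chain, one of Col4a3, Col4a4 and Col4a5, and one of Col4a5 and Col4a6. Among the collagen IV genes, the pair on the X chromosome had the largest differences between the groups. Col4a6 (ENSMUSG00000031273, mm10 chrX:141165403-141474076, minus strand, 7.97 kb) was at 39.7, 52.0, 39.5 and 40.5 CPM in Gent+Fos OE against 20.8, 13.4 and 17.8 CPM in Gent. Every Gent+Fos OE library was above every Gent library, and the highest Gent library lay far under the lowest of the others. Gent+Fos OE replicate 2 stood apart at the top of its group. The log2 fold change was 1.31 ± 0.18 (SE), edgeR adjusted p = 0.00646, which is 2.47-fold, and the two-sided exact permutation test gave p = 0.0286, the smallest value that 4 against 3 libraries allow. With length offsets the log2 fold change was 1.13 and without Gent replicate 2 it was 1.15, and Col4a6 passed the call in both fits. Leaving out 1 library at a time gave adjusted p from 0.00239 to 0.0314, and the call was lost without any 1 Gent+Fos OE library and without Gent replicate 3.

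Its neighbour Col4a5 (ENSMUSG00000031274, chrX:141475385-141689234, plus strand, 6.72 kb), the chain it pairs with, was at 268, 319.9, 292 and 272 CPM in Gent+Fos OE against 191, 121 and 168 CPM in Gent. The groups again did not overlap, and Gent replicate 2 was lowest for both genes. The log2 fold change was 0.85 ± 0.16 (SE), edgeR adjusted p = 0.0321, short of the limit for a call, and 0.73 with length offsets, where the adjusted p was 0.0086. The start sites of the pair lie 1309 bases apart in the files' annotation. As this pair had the largest differences among the collagen IV genes, its upstream sequences are shown, each as the 240 bases that begin 250 bases before the RefSeq start (GRCm38.p6, which is mm10, read 5′ to 3′ on the gene's strand), with the GC-box letters GGGCGG or their reverse complement in capitals.
Col4a6 (chrX:141474087-141474326, minus strand): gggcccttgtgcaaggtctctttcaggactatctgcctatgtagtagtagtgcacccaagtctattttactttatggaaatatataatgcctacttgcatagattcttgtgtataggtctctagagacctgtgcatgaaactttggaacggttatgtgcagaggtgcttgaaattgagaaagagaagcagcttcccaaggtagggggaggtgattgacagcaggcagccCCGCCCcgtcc
Col4a5 (chrX:141475169-141475408, plus strand): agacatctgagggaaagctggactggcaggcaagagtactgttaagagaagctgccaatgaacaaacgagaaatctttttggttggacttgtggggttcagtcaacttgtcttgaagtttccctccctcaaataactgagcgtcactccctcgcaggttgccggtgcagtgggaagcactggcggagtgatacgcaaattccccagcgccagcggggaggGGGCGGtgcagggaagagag
Each holds 1 match, 21 bases before the RefSeq start of Col4a6 and 30 bases before that of Col4a5. The files and RefSeq give the same start for Col4a6, but for Col4a5 the RefSeq start lies further into the gene, so that its match is inside the gene as the files annotate it. GGGCGG was in 63.3% of the 30 windows of 300 bases that RefSeq gave for 26 members, and in 35.66% of all 32851 such windows. The letters TGANTCA, which AP-1 dimers containing Fos recognise, were in neither sequence. They occurred in 7.81% of all windows and in 1 member window, 90 bases before the RefSeq start of Col6a1. The files annotate an earlier start for Col6a1, so this match too is inside the gene as they give it. It is shown here with 10 bases on each side and the heptamer in capitals.
Col6a1 (chr10:76726118-76726144, minus strand): gctgatgctgTGACTCActcagctttg
The related letters TGACGTCA were in 0 member windows and in 1.79% of all windows, and CCAAT was in 36.7% and 37.41%. A match of letters is a description of the sequence, and Fos binding was not analysed here.

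The autosomal collagen IV chains gave smaller differences. Col4a1 (7.46 kb), the most abundant collagen IV chain, was at 1184, 929.6, 1154 and 1142.5 CPM in Gent+Fos OE against 1003, 1019 and 899 CPM in Gent. Col4a2 (6.62 kb), whose annotated start lies 21 bases from that of Col4a1 on the opposite strand with a short overlap of the gene ends, was at 742, 567, 729 and 721 CPM in Gent+Fos OE against 662, 775 and 629 CPM in Gent. Both genes had overlapping groups, and Gent+Fos OE replicate 2 stood below the rest of its group in both. The log2 fold change was 0.18 ± 0.13 (SE), edgeR adjusted p = 0.399, for Col4a1 and 0.0024 ± 0.14 (SE), edgeR adjusted p = 0.993, for Col4a2. Col4a4 was at 7.06 to 13.1 CPM with added Fos against 4.29 to 7.19 CPM in Gent (log2 fold change 0.64 ± 0.27 (SE), edgeR adjusted p = 0.185), and the groups overlapped only through Gent replicate 1. Its partner Col4a3, which with Col4a4 and Col4a5 makes the kidney and inner ear type of network, was the lowest member of all per kb, at 1.71 to 5.45 CPM with added Fos against 1.73 to 4.07 CPM in Gent (log2 fold change 0.17 ± 0.45 (SE), edgeR adjusted p = 0.837). At that level the SE is wide, and no difference was detectable for Col4a3.

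Within a library, ratios between chains of the same family do not depend on how that library was scaled, so they were taken per kb of exon. Col4a6 over Col4a2 was 0.0444, 0.0762, 0.0450 and 0.0466 in Gent+Fos OE against 0.0260, 0.0144 and 0.0235 in Gent (two-sided exact permutation p = 0.0286, adjusted p = 0.081 over 17 ratios). Col4a5 over Col4a1 was 0.252, 0.382, 0.282 and 0.265 in Gent+Fos OE against 0.212, 0.132 and 0.208 in Gent, and the groups did not overlap here either, with the same p. Col4a5 over Col4a6 was 8.02, 7.30, 8.78 and 7.99 in Gent+Fos OE against 10.9, 10.7 and 11.2 in Gent, so Col4a5 was the more abundant of the pair in every library and its lead was smaller with added Fos. No ratio had an adjusted p under 0.05. As no exact permutation p here can be under 0.0286, adjustment over 17 ratios leaves little room for one, and nothing is concluded from its absence. Col4a5 held 12.6 to 17.9% with added Fos against 6.56 to 10.7% in Gent and Col4a6 held 1.57 to 2.45% with added Fos against 0.615 to 0.977% in Gent of the summed CPM per kb of the 6 chains. Both genes are close to their partners in length (6.62 to 7.97 kb for Col4a1, Col4a2, Col4a5 and Col4a6).

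**Figure D3:**
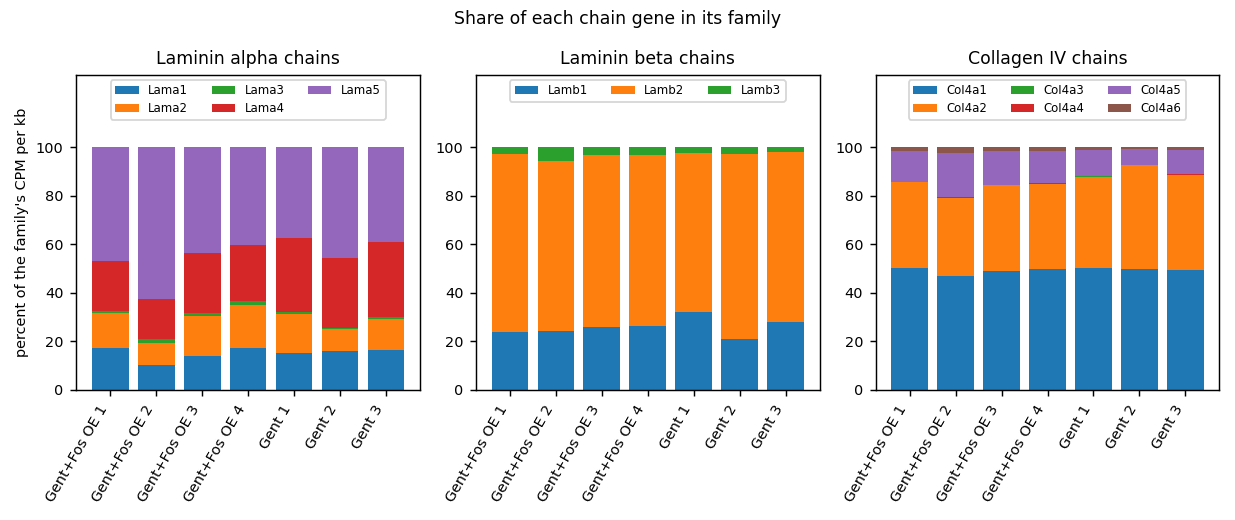
Stacked bars give, for each of the 7 libraries, the percent of the summed CPM per kb of a family that each chain gene holds, for laminin alpha, laminin beta and collagen IV chains. Col4a5 takes 12.6 to 17.9% in the Gent+Fos OE libraries and 6.56 to 10.7% in the Gent libraries, and Lama4 takes 16.4 to 24.7% and 29.0 to 31.0%.

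Collagens VII, XV and XVIII all had positive fold changes. Col7a1 (10.3 kb) encodes the chain of the anchoring fibrils that tie a basement membrane to the stroma. It was at 89.4, 77.0, 130.4 and 72.4 CPM in Gent+Fos OE against 50.8, 45.3 and 29.1 CPM in Gent. All 4 Gent+Fos OE libraries were above all Gent libraries, with replicate 3 the highest, and the log2 fold change was 1.15 ± 0.24 (SE), edgeR adjusted p = 0.043, or 2.21-fold. With length offsets it was 0.85 (edgeR adjusted p = 0.084). Col18a1, the chain whose fragment is endostatin, was at 256 to 385 CPM with added Fos against 173 to 252 CPM in Gent and the groups did not overlap (log2 fold change 0.53 ± 0.18 (SE), edgeR adjusted p = 0.134). Gent+Fos OE replicate 2, at 385 CPM, was well above the other 3 of its group. Col15a1, a related chain of vessel and muscle basement membranes, was low, at 4.44 to 7.35 CPM with added Fos against 2.44 to 5.10 CPM in Gent (log2 fold change 0.50 ± 0.28 (SE), edgeR adjusted p = 0.287).

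Among the laminins, 8 of 9 chain genes had a positive fold change, with a median of 0.59 (0.23 with length offsets, 0.30 without Gent replicate 2 and 0.83, with 9 of 9 positive, without Gent replicate 1). The unadjusted limit was passed by 4, Lama3, Lama5, Lamb3 and Lamc1, all upward, where 11.1% of all tested genes and 25.1% of the longest class passed it upward, and 8 of the 9 genes are in that class. Lama3 and Lamb3 encode the alpha3 and beta3 chains of laminin-332, which joins epithelia to their basement membrane through hemidesmosomes. Lama3 (10.7 kb) was at 6.81, 14.3, 8.04 and 9.02 CPM in Gent+Fos OE against 5.61, 2.21 and 2.98 CPM in Gent. The lowest Gent+Fos OE library was above the highest Gent library by little more than 1 CPM, and the log2 fold change, the largest of all members, was 1.41 ± 0.35 (SE), edgeR adjusted p = 0.0686. Lamb3 (6.61 kb) was at 23.7, 47.5, 24.3 and 23.8 CPM in Gent+Fos OE against 16.8, 17.1 and 12.5 CPM in Gent, again without overlap and with replicate 2 apart at the top (log2 fold change 0.95 ± 0.26 (SE), edgeR adjusted p = 0.09). With length offsets the values were 1.16 for Lama3 and 0.80 for Lamb3. Gent+Fos OE replicate 2 was the highest library for both genes. Without it, the fold change of Lama3 was 1.14 and that of Lamb3 was 0.63, the lowest that leaving out any 1 library gave for either gene.

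The other laminin chains make the laminins of vessels, muscle, nerve and most epithelia. Lama5, the alpha chain of mature epithelial and vessel laminins, was at 391, 548, 309.7 and 268 CPM in Gent+Fos OE against 248, 211 and 216 CPM in Gent (log2 fold change 0.75 ± 0.22 (SE), edgeR adjusted p = 0.104). Its groups did not overlap, but Gent+Fos OE replicate 4 was close above Gent replicate 1. Lamc1, the gamma chain shared by most laminins, was at 721, 685, 707 and 621 CPM in Gent+Fos OE against 602, 273 and 474 CPM in Gent (log2 fold change 0.60 ± 0.22 (SE), edgeR adjusted p = 0.15). Gent replicate 2 was by far the lowest for Lamc1, and without it the fold change was 0.34, beside 0.87 without Gent replicate 1. Lama2, the alpha chain of muscle and nerve, was at 117 to 175 CPM with added Fos against 59.4 to 154 CPM in Gent (log2 fold change 0.59 ± 0.27 (SE), edgeR adjusted p = 0.213, and log2 fold changes of 0.30 without Gent replicate 2 and 0.95 without Gent replicate 1). Lama1, an early embryonic chain, had 74.8 to 124 CPM with added Fos against 63.4 to 85.3 CPM in Gent, with a log2 fold change of 0.34 ± 0.18 (SE), edgeR adjusted p = 0.27.

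Lamb2, Lamb1 and Lama4 had the smallest values among the laminins. Lamb2, the main beta chain here, was at 467 to 571 CPM with added Fos against 448 to 467 CPM in Gent without overlap, yet the gap was under 1 CPM and the log2 fold change was 0.19 ± 0.12 (SE), edgeR adjusted p = 0.34. Lamb1 was at 286 to 309 CPM with added Fos against 208 to 354 CPM in Gent (log2 fold change 0.054 ± 0.17 (SE), edgeR adjusted p = 0.862). Lama4, a chain of vessels and mesenchyme, was the single laminin with a negative value, -0.063 ± 0.15 (SE), edgeR adjusted p = 0.821, at 152 to 186 CPM with added Fos against 142 to 214 CPM in Gent. Within the alpha chains Lama4 held 16.4 to 24.7% with added Fos against 29.0 to 31.0% in Gent of the summed CPM per kb, with no overlap between the groups, and Lama5 held 40.1 to 62.7% with added Fos against 37.5 to 45.5% in Gent. Lamb2 over Lamb1 per kb was 3.08, 2.90, 2.75 and 2.66 in Gent+Fos OE against 2.06, 3.66 and 2.49 in Gent, and the groups overlapped.

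The linkers of the 2 networks had values of both signs. Perlecan (Hspg2, 14.7 kb), a large heparan sulfate proteoglycan, was at 1396, 1418.5, 1254 and 1083 CPM in Gent+Fos OE against 1228, 734 and 729.7 CPM in Gent. Gent replicate 1 lay inside the range of Gent+Fos OE, and the log2 fold change of 0.52 ± 0.20 (SE), edgeR adjusted p = 0.156, became 0.13 with length offsets. Nid1 (6.94 kb), which bridges laminin and collagen IV, was at 694, 533, 662 and 701 CPM in Gent+Fos OE against 933, 489 and 726 CPM in Gent (log2 fold change -0.15 ± 0.20 (SE), edgeR adjusted p = 0.67). Nid2, its paralog, was at 146 to 219 CPM with added Fos against 174 to 311 CPM in Gent (log2 fold change -0.43 ± 0.21 (SE), edgeR adjusted p = 0.221). Nid1, Nid2 and Lama4 were the 3 basement membrane genes with a negative value, and Nid1 over Nid2 per kb was 2.36, 2.71, 3.01 and 2.52 in Gent+Fos OE against 2.24, 2.09 and 2.07 in Gent (two-sided exact permutation p = 0.0571, adjusted p = 0.108 over 17 ratios).

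The fibrillar collagens had values of both signs in the edgeR fit, with a median of -0.18 over 8 genes, and only Col2a1 among them passed the unadjusted limit. Their median was 0.045, with 5 of 8 higher, without Gent replicate 1 and -0.052 without Gent+Fos OE replicate 2. With length offsets it was -0.46, and 5 passed the limit downward (Col1a1, Col1a2, Col2a1, Col5a2 and Col11a1). Col2a1 (ENSMUSG00000022483, chr15:97975602-98004695, minus strand, 9.24 kb), the main collagen of cartilage and of the developing otic capsule, was the member with the lowest fold change. It was at 2114, 1475, 1930.0 and 1895 CPM in Gent+Fos OE against 3329, 3723 and 2477 CPM in Gent. Every Gent+Fos OE library was below every Gent library, and the log2 fold change was -0.78 ± 0.17 (SE), edgeR adjusted p = 0.047, with 1.71-fold more in Gent. With length offsets it was -1.05 (edgeR adjusted p = 0.0177). Per kb, Col2a1 over Col1a2 was 0.484, 0.552, 0.497 and 0.449 in Gent+Fos OE against 0.589, 1.02 and 0.650 in Gent (two-sided exact permutation p = 0.0286, adjusted p = 0.081 over 17 ratios).

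Col2a1 fibrils in cartilage also contain collagen XI and carry collagen IX, and none of those genes passed the unadjusted limit in the edgeR fit. Col11a1 was at 388 to 475 CPM with added Fos against 316 to 687 CPM in Gent (log2 fold change -0.26 ± 0.22 (SE), edgeR adjusted p = 0.469) and Col11a2 at 484 to 611 CPM with added Fos against 446 to 519 CPM in Gent (log2 fold change 0.14 ± 0.13 (SE), edgeR adjusted p = 0.521). With length offsets the log2 fold change of Col11a1 was -0.56, edgeR adjusted p = 0.0469. Col9a1, Col9a2 and Col9a3 had log2 fold changes of -0.071 ± 0.15, -0.13 ± 0.18 and 0.052 ± 0.17 (SE), all within 1 SE of 0. In the cartilage and otic capsule marker list 4 of 10 tested genes were higher, the median was -0.14 on the log2 scale, and 2 passed the unadjusted limit upward and 1 downward. Without Gent replicate 2 the median was 0.25, with 6 of 10 higher. The list summed to 268 to 403 CPM with added Fos against 261 to 302 CPM in Gent, and its marker Snorc was at 0 in all 7 libraries. The part of such cells in the value of Col2a1 was not tested.

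Collagen I, the fibre of dermis, bone and most stroma, was represented unevenly by its 2 chains. Col1a2 (12.4 kb) was at 5876, 3594, 5222 and 5675 CPM in Gent+Fos OE against 7593, 4906 and 5124.5 CPM in Gent. Col1a1 (6.56 kb) was at 179.6, 138, 229.9 and 239 CPM in Gent+Fos OE against 419, 244 and 189 CPM in Gent. For both genes Gent replicate 1 was highest, Gent+Fos OE replicate 2 was lowest and the groups overlapped. The log2 fold changes were -0.21 ± 0.20 (SE), edgeR adjusted p = 0.539, for Col1a2 and -0.53 ± 0.27 (SE), edgeR adjusted p = 0.241, for Col1a1. With length offsets they were -0.53 (adjusted p = 0.109) and -0.64 (adjusted p = 0.145). Without Gent replicate 1 the fold change of Col1a1 was -0.14 and that of Col1a2 0.021. Col3a1 (9.82 kb), the fibre that accompanies collagen I in soft tissue, was at 2627, 2112, 3351 and 3014 CPM in Gent+Fos OE against 2676, 2133 and 2093 CPM in Gent (log2 fold change 0.27 ± 0.17 (SE), edgeR adjusted p = 0.337). Col3a1 over Col1a2 per kb was 0.566, 0.744, 0.812 and 0.672 in Gent+Fos OE against 0.446, 0.550 and 0.517 in Gent (two-sided exact permutation p = 0.0571, adjusted p = 0.108 over 17 ratios). Col5a1 and Col5a2, the chains of the collagen that starts fibrils, had log2 fold changes of 0.20 ± 0.23 and -0.15 ± 0.19 (SE).

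No fibril-associated collagen passed the unadjusted limit in the edgeR fit. Col12a1 (15.2 kb), the second-longest member, was at 750.4, 537, 661 and 669 CPM in Gent+Fos OE against 1076, 357 and 585 CPM in Gent. The Gent libraries spanned the whole range, from 357 in replicate 2 to 1076 CPM in replicate 1, so the log2 fold change of -0.040 had an SE of 0.29. Col14a1 and Col16a1 had log2 fold changes of -0.23 ± 0.20 and -0.30 ± 0.17 (SE), with edgeR adjusted p of 0.502 and 0.275. Both had Gent replicate 1 as the highest of the 7 libraries.

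Col6a3, Fn1 and Col6a1 were the stromal genes with the largest positive values. Col6a3 (12.0 kb), the longest chain of the collagen VI filament, was at 84.9, 90.2, 116 and 83.3 CPM in Gent+Fos OE against 76.9, 42.7 and 49.2 CPM in Gent. The groups did not overlap, but Gent replicate 1 was just under the lowest Gent+Fos OE library (log2 fold change 0.73 ± 0.21 (SE), edgeR adjusted p = 0.0976, and 0.43 with length offsets). Col6a1 (4.38 kb), the member whose RefSeq window holds TGANTCA, was at 375, 259.9, 413 and 373 CPM in Gent+Fos OE against 301, 298 and 246 CPM in Gent. Its Gent+Fos OE replicate 2 lay among the Gent libraries, and the log2 fold change was 0.33 ± 0.17 (SE), edgeR adjusted p = 0.241. Col6a2 was at 117 to 182 CPM with added Fos against 121 to 159.7 CPM in Gent (log2 fold change 0.17 ± 0.17 (SE), edgeR adjusted p = 0.568). Col6a1 is short for a member, and its fold change moved little with length offsets (0.32) or without Gent replicate 2 (0.37).

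Fibronectin (Fn1, 11.7 kb), which cells bind through integrins and which precedes collagen in newly laid matrix, was at 4808, 6096.5, 4818.5 and 4529 CPM in Gent+Fos OE against 5476, 2876 and 2415 CPM in Gent. Gent replicate 1 reached the level of the Gent+Fos OE libraries, while Gent replicates 2 and 3 were well below. The log2 fold change was 0.50 ± 0.25 (SE), edgeR adjusted p = 0.243, 0.94 without Gent replicate 1 (adjusted p = 0.018) and 0.20 with length offsets, so the value for Fn1 rested on which Gent libraries were used.

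Per kb of exon, which allows levels to be set side by side between genes, 4 stromal genes led in both groups. Col1a2 was at 409.8 ± 83.3 in Gent+Fos OE and 473 ± 120.1 in Gent (CPM per kb, mean ± SD, n = 4 and 3), Fn1 at 433 ± 60.1 in Gent+Fos OE and 307 ± 141 in Gent, Col2a1 at 201 ± 29.2 in Gent+Fos OE and 344 ± 68.9 in Gent and Col3a1 at 283 ± 54.2 in Gent+Fos OE and 234 ± 33.2 in Gent. Col1a2 was above Col3a1 in all 7 libraries. Col3a1 was above Col2a1 in all 4 Gent+Fos OE libraries and below it in all 3 Gent libraries. Fn1 was above Col1a2 in Gent+Fos OE replicate 2 and below it in the other 6, and in Gent its libraries overlapped those of Col2a1 and Col3a1. Col4a1 followed at 148 ± 15.6 in Gent+Fos OE and 130.5 ± 8.71 in Gent, then Col4a2 at 104 ± 12.5 in Gent+Fos OE and 104 ± 11.5 in Gent and Nid1 at 93.2 ± 11.3 in Gent+Fos OE and 103 ± 32.0 in Gent, the 3 highest basement membrane genes. At the low end Col15a1, Col4a4, Lama3 and Col4a3 were under 1 CPM per kb in both groups. Col4a5 took rank 24 of 39 in Gent and rank 18 in Gent+Fos OE, and Col1a1 rank 18 and rank 25.

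**Figure D4:**
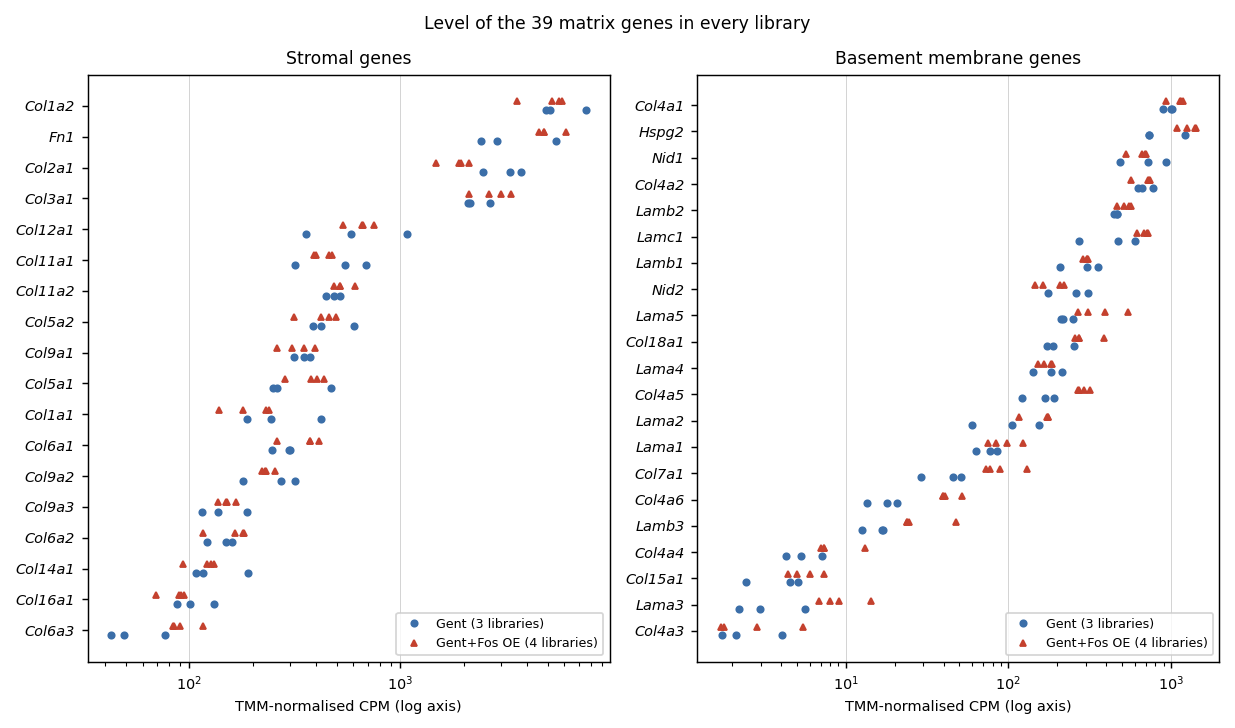
TMM-normalised CPM (horizontal log axis) of each member in every library, with circles for 3 Gent libraries and triangles for 4 Gent+Fos OE libraries, and genes ordered by their Gent mean. The groups do not overlap for 9 of 21 basement membrane genes, Col4a6, Col4a5, Col7a1 and Lama3 among them. Of the 18 stromal genes, Col6a3 (higher) and Col2a1 (lower) do not overlap, and in both panels most rows overlap.

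Single libraries shaped these values. Gent+Fos OE replicate 2 was the lowest of its group for 14 of 18 stromal genes and for 8 of 21 basement membrane genes, and the highest for 10 of those 21. Gent replicate 1 was the highest of the Gent libraries for 12 stromal and 16 basement membrane genes, and Gent replicate 2 the lowest for 13 basement membrane genes, or 9 once length trends were removed. In the heat map of departures from each gene's mean, Gent replicate 1 has a median departure of 0.41 on the log2 scale over stromal genes and Gent replicate 2 one of -0.49 over basement membrane genes. The basement membrane median was 0.30 without Gent replicate 2, 0.71 without Gent replicate 1 and 0.43 without Gent+Fos OE replicate 2, and the stromal median was -0.047, 0.072 and 0.031 in these fits.

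**Figure D5:**
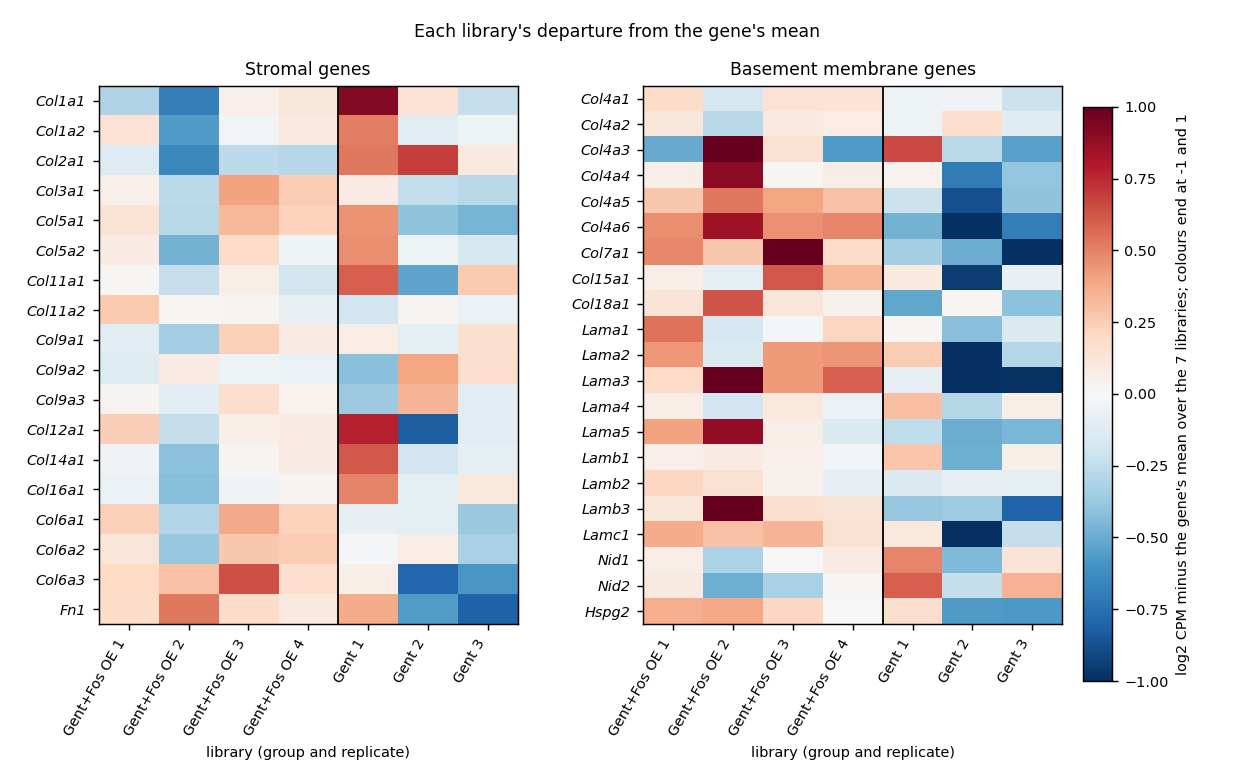
Colours give log2 CPM of each member in each of 7 libraries minus the gene's mean over the 7, from -1 (blue) to 1 (red), with stromal genes on the left and basement membrane genes on the right. Gent replicate 1 is mostly red in the stromal panel and Gent replicate 2 mostly blue in the basement membrane panel, where Col4a5 and Col4a6 are red in all 4 Gent+Fos OE libraries and blue in all 3 Gent libraries.

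Library totals ran from 27879889 to 34335214 counts, of which the members took 2.16 to 3.03%, and mitochondrial genes took 1.74 to 1.99% in 6 libraries and 2.86% in Gent replicate 2. Fos, the delivered gene, was at 149 to 167 CPM with added Fos against 34.6 to 40.6 CPM in Gent (log2 fold change 2.01 ± 0.13 (SE), edgeR adjusted p = 0.000142), so the labels and the delivered gene go together. Marker lists for the tissue were present, with 13 supporting cell genes summing to 2526.5 to 3268 CPM and 11 hair cell genes to 637 to 929.6 CPM over all libraries.

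The cells that make matrix were followed with marker lists, for which the shares over all tested genes are again 11.1% passing the unadjusted limit upward and 13.4% downward. Of the 15 mesenchyme markers 6 were higher and 9 lower, with a median of -0.066 on the log2 scale. They summed to 1155 to 1609 CPM with added Fos and 1317 to 1881 CPM without, and 3 (Dcn, Lum and Fbln1) passed the unadjusted limit downward and 0 upward. Those 3 are matrix genes that are also counted in the lists of matrix assembly below, so they are no separate readout of the cells. Without Gent replicate 1 the mesenchyme median was -0.080, with 1 passing upward and 0 downward. Bone markers (6 tested) were lower in 5 cases, with a median of -0.25 and sums of 1335 to 1588 CPM with added Fos against 1730 to 1938 CPM without, which did not overlap. Of these, 1 passed the unadjusted limit upward and 2 downward. Without Gent replicate 1 the bone median was 0.46, with 4 of 6 genes higher. The endothelial list (9 tested) had a median of 0.049 with sums of 144 to 188 and 152 to 216 CPM, and 2 passed the unadjusted limit upward and 0 downward. With length offsets the endothelial median was -0.12. The list of Schwann cells and glia (11 genes) had a median of -0.090 with sums of 575 to 685 and 538 to 757 CPM, 1 passing upward and 4 downward, and a median of 0.020 without Gent replicate 2 and -0.32 without Gent replicate 1. Pericyte and smooth muscle genes (9) were higher in 5 cases, with a median of 0.43 (0.69 without Gent replicate 1 and 0.12 with length offsets), while their sum was 274 to 415 CPM with added Fos and 406 to 676 CPM without, and 2 passed the unadjusted limit upward and 3 downward. Macrophage genes (12) were lower in 11 cases, with a median of -0.69 and sums of 1124 to 1829 against 2022 to 2534 CPM, and 9 passed the unadjusted limit downward and 0 upward. These genes are short, with a median length of 1.83 kb, and in the class of the shortest genes 24.1% passed the limit downward. With length offsets the macrophage median was -0.61. Cd14 among them was called, where 0.414% of tested genes were. Melanocyte genes (7) were lower in 6 cases, with a median of -1.33 and sums of 86.2 to 100.05 against 141 to 155 CPM, 5 passing downward and 0 upward, and Dct and Tyrp1 were called. The part of these lists in the members' values was not tested.

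Other genes of matrix assembly were described from lists. None of 108 tested genes in 6 such lists was called by edgeR, 13 passed the unadjusted limit upward (background 11.1%) and 26 downward (13.4%), and DESeq2 called 10 (2.86%). The small leucine-rich proteoglycans bind collagen fibrils and set their width. All 9 tested genes of this list were lower, with a median of -0.56 on the log2 scale, and 7 (Dcn, Bgn, Lum, Fmod, Ogn, Aspn and Epyc) passed the unadjusted limit. Downward it was passed by 13.4% of all tested genes, and by 24.1% and 17.1% in the 2 classes of the shortest genes. Aspn was at 66.7, 35.4, 53.2 and 41.9 CPM in Gent+Fos OE against 145, 91.8 and 125 CPM in Gent, without overlap (log2 fold change -1.29 ± 0.22 (SE), edgeR adjusted p = 0.0183), and Fmod at 63.7, 29.6, 50.3 and 71.6 CPM in Gent+Fos OE against 104, 111 and 109 CPM in Gent (log2 fold change -1.005 ± 0.24 (SE), edgeR adjusted p = 0.0636). These genes are short, with a median of 2.56 kb against 4.08 kb for all tested genes, and with length offsets their median was -0.66.

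The enzymes and chaperones of procollagen were lower in 22 of 31 cases, with a median of -0.24 (-0.16 without Gent replicate 2), 2 passing the unadjusted limit upward (background 11.1%) and 9 downward (13.4%). P4ha2, a subunit of the prolyl hydroxylase that stabilises the triple helix, was at 81.6, 54.7, 64.0 and 76.1 CPM in Gent+Fos OE against 114, 139 and 124 CPM in Gent, without overlap (log2 fold change -0.86 ± 0.16 (SE), edgeR adjusted p = 0.0234). Loxl4, a crosslinking lysyl oxidase, had the opposite direction at 9.67, 12.5, 10.3 and 7.45 CPM in Gent+Fos OE against 5.78, 5.80 and 5.37 CPM in Gent (log2 fold change 0.82 ± 0.20 (SE), edgeR adjusted p = 0.0637). The 15 tested basement membrane proteins outside the 39 were higher in 9 cases with a median of 0.26 (-0.026 with length offsets and 0.14 without Gent replicate 2), and 3 passed the unadjusted limit upward and 2 downward. Npnt (nephronectin), an integrin ligand, was at 99.0, 116, 106 and 92.5 CPM in Gent+Fos OE against 69.4, 42.0 and 71.1 CPM in Gent (log2 fold change 0.76 ± 0.18 (SE), edgeR adjusted p = 0.0651), and Smoc2, a calcium-binding matrix protein, at 24.2, 19.0, 15.4 and 18.0 CPM in Gent+Fos OE against 36.7, 27.5 and 25.4 CPM in Gent (log2 fold change -0.64 ± 0.18 (SE), edgeR adjusted p = 0.101).

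Of 20 further collagen and laminin chain genes, 10 were higher and 10 lower, with a median of -0.00035 (0.16 without Gent replicate 1 and -0.17 with length offsets), and 3 passed the unadjusted limit upward and 2 downward. Col8a2, a network collagen of vessels and the eye, was at 172, 103, 112 and 173 CPM in Gent+Fos OE against 300.1, 251 and 267 CPM in Gent, without overlap (log2 fold change -0.96 ± 0.20 (SE), edgeR adjusted p = 0.0396). Elastic and provisional matrix genes (20) had a median of -0.12 (0.14 without Gent replicate 1 and -0.33 with length offsets), and 3 passed the unadjusted limit upward and 5 downward. In this list Thbs2, a matricellular thrombospondin, had a log2 fold change of -1.01 ± 0.33 (SE), edgeR adjusted p = 0.121, and Tnxb, a tenascin of collagenous tissue, one of 0.91 ± 0.22 (SE), edgeR adjusted p = 0.0656. Matrix receptors other than integrins (13 tested) had a median of -0.013, 2 passing upward and 1 downward, with the collagen receptor kinase Ddr1 at 0.34 ± 0.14 (SE), edgeR adjusted p = 0.169, and the sarcoglycan Sgce at -0.33 ± 0.15 (SE), edgeR adjusted p = 0.199.

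DESeq2, the tool of the study's methods, tested 20975 genes and called 2.86% of them, including 5 members: Col4a6, Col4a5, Col7a1 and Lama3, which were higher, and Col2a1, which was lower. The other 34 members were not called by it.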

How the data were processed

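RNA sequencing was done on 7 libraries, each from 12 pooled utricles of P2 mice. The authors deposited read counts per gene without normalization, 1 file for each library. Per the file headers, these counts were made by featureCounts 2.0.6 with an annotation on mm10, with the 2 reads of a pair counted separately, without strand and without reads that hit several places or genes, whereas the methods name mm39. The submitters' processing notes also name Trim Galore 0.6.10, HISAT2 2.2.1 and DESeq2 1.34.0. The methods state fewer replicates than the labels list, so all 7 libraries were used. Nothing says that pools came from separate litters, so p-values measure the spread between pools.

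Genes were kept by filterByExpr (17155 genes), scaled by TMM and compared with edgeR 4.0.16 (glmQLFit, glmQLFTest, no covariate) in R 4.3.3, with Benjamini-Hochberg adjustment over all tested genes. Alternatives were DESeq2 1.42.0, limma 3.58.1 (voom, without and with sample quality weights), RLE and upper quartile scaling, no filter, a stricter filter (10 counts or more in each library), gene length offsets (loess span 0.3, per library), a replicate block without and with these offsets, and each library left out. Offsets without Gent replicate 2, offsets for length and GC content, and other matrix genes under each alternative were added after seeing the data. Exact permutation tests compared mean log2 CPM, with a prior count of 2, over the 35 divisions of 7 libraries into 4 and 3. Levels per kb divide CPM by the files' exon length. The fits were also run on simulated counts, where a length trend, if any, was put in Gent replicate 2 only, unlike the real libraries. Those runs therefore do not settle how the offsets act on these data.

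Symbols were matched by Ensembl ID, and promoter windows by symbol (26 of 39 members, RefSeq GRCm38.p6, none for Col1a1, Col2a1, Col5a2, Col9a3, Col12a1, Col14a1, Fn1, Col4a3, Lama1, Lama3, Lama4, Lamc1 and Nid2). Values in every library are given for called members, for the 5 largest absolute log2 fold changes of each group among members whose mean reached 1 CPM, and for the 3 highest levels per kb of each. From other lists the called genes and the 2 largest changes are named, and genes passing an unadjusted limit are counted. Lama5, Lamc1, Hspg2 and Col12a1 were given in full, and the 7 proteoglycans past that limit named, after their values were seen. Some results are not reported here. The members, lists and rules were chosen with earlier results of these data known. Plots used matplotlib 3.10.9 and pandas 2.3.3 under Python 3.11.15.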

Additional observations from a re-analysis of the deposited data

Results flagged for a closer look

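In 7 of the 39 members, 1 library stood apart from the other 3 of its group by a gap past Dixon's 95% limit for 4 libraries, and in all 7 cases it was Gent+Fos OE replicate 2. It was below its group for Col4a1 (929.59 CPM), Col4a2 (566.76 CPM) and Lama2 (116.75 CPM), and above it for Col4a4 (13.105 CPM), Col4a6 (51.991 CPM), Col18a1 (384.94 CPM) and Lamb3 (47.49 CPM). Chance flags about 1 in 20 groups, and genes of the same libraries are not independent. All 7 are basement membrane genes. The Gent group, with 3 libraries, was not screened. Without this library the basement membrane median log2 fold change was 0.43, and Col4a6 had a log2 fold change of 1.20 and an edgeR adjusted p of 0.0204, short of the limit for a call. The call was also lost without each of the other Gent+Fos OE libraries (1.33 to 1.34), and calls over all tested genes numbered 71 with all libraries, 24 without replicate 2, and 21, 5 and 19 without replicates 1, 3 and 4.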

How the results depend on the processing

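Over 19 alternative settings, 667 of 741 gene values kept their direction and their side of the limit for a call, 19 were newly called, 7 lost the call and 48 changed sign in 17 genes, of which 1, Col3a1, had an absolute log2 fold change over 0.25. Members called numbered 1 in the edgeR fit, 3 without a filter, 5 with DESeq2, 9 with quality weights, 2 with length offsets, 2 with length and GC content offsets, 3 with length offsets without Gent replicate 2, and 0 to 2 with 1 library left out. Over all tested genes, the calls in these fits numbered 71, 204, 600, 961, 130, 147, 175 and 5 to 138. The labels number the replicates of both groups, but same-numbered libraries did not deviate together (correlations of 0.064, -0.038 and 0.032), so the numbers were not taken as pairs. With a replicate block 0 members were called, and 0 with the block and length offsets, where 0 and 48 of all tested genes were called and the log2 fold change of Col4a6 was 1.34 and 1.14. Other matrix genes called numbered 0 in the edgeR fit, 3 without a filter, 10 with DESeq2, 13 with quality weights, 1 with length offsets, 2 with length and GC content offsets, 3 with length offsets without Gent replicate 2, 2 with the replicate block and length offsets, and 0 to 1 with 1 library left out. The basement membrane median was 0.52, and 0.23 with length offsets, 0.21 with length and GC content offsets, 0.20 with length offsets without Gent replicate 2, 0.21 with the replicate block and length offsets, and 0.30 to 0.71 with 1 library left out.

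The sign changes were as follows. With length offsets the values were -0.025 for Col11a2, -0.061 for Col6a2, -0.0046 for Col4a1, -0.15 for Col4a2, -0.081 for Col4a3 and -0.19 for Lamb1. With the replicate block and length offsets they were -0.070 for Col3a1, -0.032 for Col5a1, -0.13 for Col6a2, -0.026 for Col4a1, -0.16 for Col4a2 and -0.18 for Lamb1. With length offsets and without Gent replicate 2 they were -0.0087 for Col5a1, 0.080 for Col9a2, -0.072 for Col4a3 and -0.25 for Lamb1, and with length and GC content offsets 0.032 for Col9a2, -0.055 for Col4a2, -0.071 for Col4a3 and -0.16 for Lamb1. With quality weights they were 0.078 for Col5a2, 0.055 for Col12a1 and -0.038 for Lamb1, with limma-voom 0.095 for Col12a1 and -0.0002 for Col4a2, and with the replicate block 0.082 for Col12a1 and -0.023 for Col4a2. For Col4a2 upper quartile scaling gave -0.035 and no filter -0.0016. With 1 library left out, values ran from -0.33 to 0.021 for Col1a2, -0.27 to 0.070 for Col5a2, -0.17 to 0.021 for Col9a1, -0.33 to 0.048 for Col9a2, -0.10 to 0.27 for Col9a3, -0.35 to 0.47 for Col12a1, -0.38 to 0.075 for Col14a1, -0.059 to 0.090 for Col4a2, -0.31 to 0.62 for Col4a3, -0.21 to 0.081 for Lama4, -0.14 to 0.23 for Lamb1 and -0.36 to 0.091 for Nid1. The cause of these changes was not tested.

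These limits bear on all values. The groups hold 4 and 3 libraries, so no exact permutation p can be under 0.0286. Depth was alike over libraries and does not limit members above a few CPM, but Col4a3, at 1.71 to 5.45 CPM, had an SE of 0.45. The length trend and the group difference cannot be told apart beyond what the offsets remove. All 4 Gent+Fos OE libraries rose with length while Gent replicates 2 and 3, of only 3 Gent libraries, fell with it. Without Gent replicate 2, rho between length and log2 fold change was still 0.19.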

Other observations

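The 2 chains of collagen I, which join at a fixed ratio in the protein, were counted very unequally. Col1a2 over Col1a1 per kb was 17.3, 13.8, 12.0 and 12.5 in Gent+Fos OE against 9.56, 10.6 and 14.3 in Gent, and Col1a1 ranked 18 of 39 members per kb in Gent beside rank 1 for Col1a2. GC content of the transcripts was 58.9% for Col1a1 and 56.0% for Col1a2, and neither gene shares exonic bases with another gene in the files. The part of mapping or counting in this ratio was not tested.

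Col6a1 over Col6a2 per kb was 4.32, 4.24, 4.31 and 3.93 in Gent+Fos OE against 3.82, 3.55 and 3.87 in Gent, without overlap between the groups (two-sided exact permutation p = 0.0571, adjusted p = 0.108 over 17 ratios), and Col4a1 over Col4a2 was 1.41, 1.45, 1.40 and 1.41 in Gent+Fos OE against 1.34, 1.17 and 1.27 in Gent (two-sided exact permutation p = 0.0286, adjusted p = 0.081 over 17 ratios). Col5a2 over Col5a1 was 1.08, 0.980, 1.02 and 0.936 in Gent+Fos OE against 1.14, 1.44 and 1.37 in Gent, lower in all Gent+Fos OE libraries (two-sided exact permutation p = 0.0286, adjusted p = 0.081 over 17 ratios). Lamb3 over Lama3 was 5.65, 5.39, 4.92 and 4.29 in Gent+Fos OE against 4.86, 12.5 and 6.83 in Gent, with Gent replicate 2 far above the other 6 libraries.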
